A study of Mus musculus with 12 samples.

Results

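The 10 genes described here belong to the YAP and TEAD pathway, and they were chosen by gene name. They comprise the co-activators *Yap1* and *Wwtr1* (the gene of TAZ), the transcription factors *Tead1* and *Tead4*, and the cofactor *Vgll3*. The remaining 5 are the target genes *Ccn1* (older name *Cyr61*), *Ccn2* (older name *Ctgf*), *Ankrd1*, *Amotl2*, and *Lats2*, of which *Amotl2* and *Lats2* also encode inhibitors of the pathway. All 10 were found among the 55536 mouse genes of the count table, each once, and all 10 were among the 14499 genes that passed the filter on low counts and were tested.

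In the Hippo pathway, the LATS kinases phosphorylate YAP and TAZ, which keeps both proteins in the cytoplasm or leads to their degradation. Unphosphorylated YAP and TAZ enter the nucleus and switch on genes through the TEAD factors, which bind DNA at the MCAT element, a motif first studied in muscle promoters. Spread cells, stiff substrates, and actin tension are known to raise the activity of YAP and TAZ, and in skeletal muscle YAP is known for promoting the proliferation of myoblasts.

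RNA-seq was carried out on C2C12GFP cells, a mouse myoblast line that carries green fluorescent protein, and the study asked how substrate coatings change the type of muscle fiber that forms. Cells were grown on uncoated plates (control) or on plates that carried fibronectin, Collagen I, or Geltrex™, with 3 samples in each of the 4 groups. Geltrex™ is a basement membrane extract of a mouse tumor, rich in laminin and collagen IV, while the other coatings are single proteins. The series states that the myoblasts were differentiated into myotubes, the sample labels call the cells that gave the RNA myoblasts, and the day of RNA isolation is not given in the sources used here. Since all samples came from 1 cell line in culture, replicates measure the spread between samples of that line, and this spread may be technical. Total counts lay between 22520404 and 27351766 per sample, and the gene with the fewest counts among the 10, *Tead4*, had at least 487 counts in every sample. Levels are given as CPM (counts scaled to the size of each library) after TMM scaling, and a gene is said to have changed at an adjusted p of at most 0.05 in edgeR's quasi-likelihood test.

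The labelled cell type was checked against marker genes. The 7 markers of differentiated muscle (*Myog*, *Ckm*, *Acta1*, *Myh3*, *Mymk*, *Des*, and *Tnnt3*) were all tested, and *Myh3* was the most abundant. Their summed level was 7326, 7548, and 6650.5 CPM in the control, 7415, 7269, and 7230.4 CPM on Collagen I, 2541, 2161, and 2250.1 CPM with fibronectin, and 3279, 3012, and 3192 CPM with Geltrex™. Differentiated muscle transcripts were thus present in all samples, at lower levels in every fibronectin and Geltrex™ sample than in any control or Collagen I sample. The 5 markers of proliferating cells, of which *Top2a* was the most abundant, summed to 161, 188, and 209.6 CPM in the control, to 141, 140.3, and 148 CPM on Collagen I, to 531, 709.9, and 566 CPM on fibronectin, and to 558, 603, and 611 CPM on Geltrex™. These sums ran the other way and separated the same groups. The myoblast marker *Myf5* lay between 28.9 and 38.5 CPM, while *Pax7* stayed under 1 CPM. Of the fibroblast markers, *Dcn* was abundant at 1299 to 2335 CPM and was lower than in the control on fibronectin (log2 fold change -0.27, adjusted p = 0.0417) and on Geltrex™ (-0.61, adjusted p = 0.000149), where every sample was below all others. *Pdgfra*, with 509 to 1064 counts per sample, passed against the control on neither fibronectin nor Geltrex™ and was lower on Collagen I than on both (-0.45 and -0.66, adjusted p = 0.00623 and 0.000444), and *Thy1* had no count in any sample. Of the adipocyte markers, *Cebpa* had 290 to 496 counts per sample, *Plin1* at most 10, and *Adipoq* at most 2. *Epcam* had no count, *Pecam1* at most 8 in a sample, *Sp7* at most 4, and *Ptprc*, *Sox10*, and *Bglap* at most 2.

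Per kilobase of exon, which allows levels to be compared between genes, the order of the genes depended on the group. On Geltrex™ the mean of *Ccn1* (793 CPM per kb) was above that of *Ankrd1* (593 CPM per kb), and *Ccn2* (192 CPM per kb) was above *Wwtr1* (72.1 CPM per kb). In the other groups *Ankrd1* (207 to 279 CPM per kb) was above *Ccn1* (65.5 to 120.04 CPM per kb), and *Wwtr1* (65.3 to 76.7 CPM per kb) was above *Ccn2* (33.9 to 39.4 CPM per kb). The group means of the other genes ran from 25.07 to 32.9 CPM per kb for *Tead1*, from 21.2 to 35.8 CPM per kb for *Vgll3*, from 16.3 to 45.5 CPM per kb for *Amotl2*, from 11.6 to 12.4 CPM per kb for *Yap1*, from 6.24 to 13.7 CPM per kb for *Tead4*, and from 8.04 to 10.998 CPM per kb for *Lats2*. On this scale *Wwtr1* was above *Yap1* and *Tead1* above *Tead4* in each of the 4 groups. The exons of 3 of the genes overlap those of other genes in the annotation. *Lats2* shares 42.4% of its exon bases with *Gm49361* on its own strand, *Ccn2* shares 23.2% with *Gm15270* on the opposite strand, and *Yap1* shares 1.25% with *Gm20416* on the opposite strand. The overlapping genes had 6 counts or fewer in each sample, but counting may leave out reads that lie on more than 1 gene, so the levels of *Lats2* and *Ccn2* per kilobase may be too low. Whether counting used the strand is not given in the sources used here.

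The promoters were searched for the core of the MCAT element, GGAATG, which reads CATTCC on the other strand, and for the AP-1 site TGANTCA, because several of the 10 genes moved together and TEAD factors bind the first of these motifs. RefSeq promoter sequences (GRCm38.p6, 250 bases before to 50 bases after the start of transcription) were available for 7 of the 10 genes, and there was no entry for *Tead1*, *Tead4*, and *Ccn2*. The MCAT core was found in 1 or more promoters of all 7 genes, compared with 16.6% of the 27025 genes in the table, while AP-1 was found in 0 of the 7, compared with 8.97%. The muscle genes *Tnnt2*, *Myh7*, *Myh6*, and *Acta1*, which are classic MCAT examples, held the core in 4 of 4 cases. Among other widely used YAP target genes it was found in 2 of 10 (*Axl* and *Crim1*), among other Hippo regulators in 6 of 19, among the other TEAD and Vestigial-like genes in 3 of 5, and among the genes of SRF, the MRTF co-activators, and their targets in 4 of 10. A match describes the sequence and does not show binding.

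The 250 bases before the start of *Ccn1* and *Vgll3* are shown whole, because these genes represent a target and a cofactor that rose on Geltrex™ and neither stretch meets an annotated exon. They are printed 5′ to 3′ along the gene, with the MCAT core in capitals.
Ccn1, chr3:145649986-145650235, minus strand: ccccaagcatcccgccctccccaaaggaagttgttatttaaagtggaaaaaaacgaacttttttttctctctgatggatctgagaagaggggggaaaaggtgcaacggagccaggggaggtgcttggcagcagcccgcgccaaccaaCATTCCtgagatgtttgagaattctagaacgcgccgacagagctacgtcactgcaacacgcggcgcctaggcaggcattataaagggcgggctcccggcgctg
Vgll3, chr16:65814939-65815188, plus strand: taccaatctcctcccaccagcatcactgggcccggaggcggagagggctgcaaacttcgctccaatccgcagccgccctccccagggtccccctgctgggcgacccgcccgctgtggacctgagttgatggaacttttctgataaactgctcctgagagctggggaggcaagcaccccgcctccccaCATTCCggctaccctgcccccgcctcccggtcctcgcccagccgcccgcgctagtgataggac

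For the other genes, a shorter stretch shows where the core lies. *Yap1* and *Wwtr1*, the co-activators, are shown with 60 bases, and *Ankrd1*, *Amotl2*, and *Lats2* with 30 bases because their matches lie in or next to annotated exons.
Yap1, chr9:8004705-8004764, minus strand: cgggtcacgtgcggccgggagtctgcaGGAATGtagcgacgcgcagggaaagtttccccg
Wwtr1, chr3:57576014-57576073, minus strand: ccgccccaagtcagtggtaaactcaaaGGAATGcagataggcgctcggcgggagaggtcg
Ankrd1, chr19:36120037-36120066, minus strand: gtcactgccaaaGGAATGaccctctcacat
Ankrd1, chr19:36119950-36119979, minus strand: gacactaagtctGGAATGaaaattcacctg
Amotl2, chr9:102717727-102717756, plus strand: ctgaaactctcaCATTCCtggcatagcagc
Lats2, chr14:57746102-57746131, minus strand: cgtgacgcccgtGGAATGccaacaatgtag

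Counted from the start of transcription to the first base of the match, the core lay at -103 in *Ccn1*, -63 in *Vgll3*, -141 in *Yap1*, and -136 in *Wwtr1*. It lay at -210 and -123 in *Ankrd1*, at -65 in *Amotl2*, and at 5 in *Lats2*. In *Ccn1*, *Vgll3*, and *Amotl2* the letters on the gene's own strand read CATTCC. *Wwtr1* has another start in the table, with a match at -170, and *Lats2* has another start without a match.

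**Figure D1:**
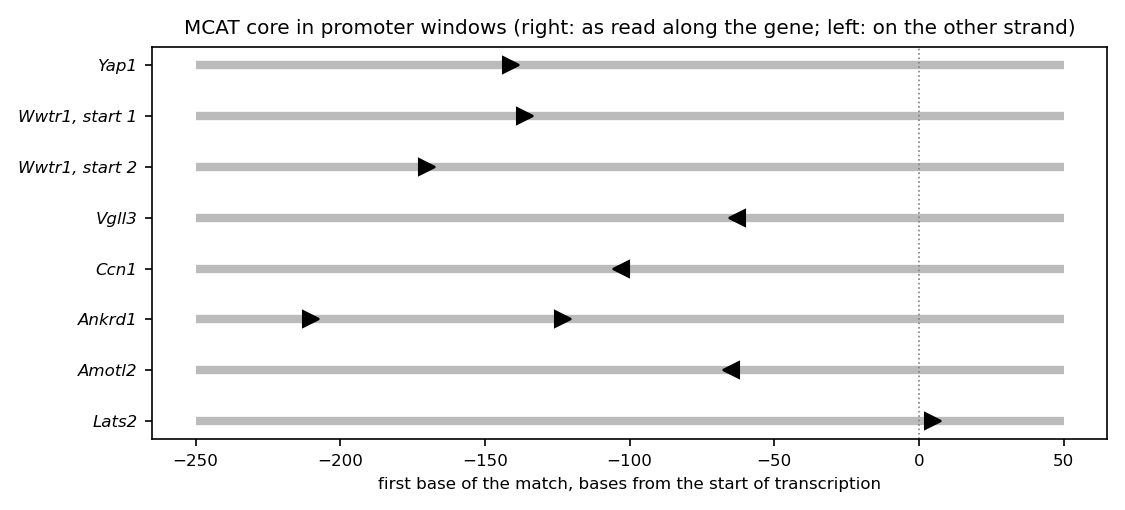
Position of each MCAT core in the promoter windows of the 7 genes, in bases from the start of transcription, with triangles pointing right for GGAATG as read along the gene and left for CATTCC. Except in *Lats2*, where the match begins at 5, the drawn matches lie before the start, between -210 and -63.

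Across the comparisons, the number of genes that changed among the 10 was read against the share of all tested genes that changed in the same direction. On Collagen I over the control, edgeR called 0 of 10 higher (0.200% of all tested genes) and 0 lower (0.917%). At an unadjusted p under 0.05 the count was 1, and DESeq2 called 1 higher, *Amotl2*, where it called 111 of 12827 genes higher. The edgeR counts were thus no higher than the low background. On fibronectin over the control, edgeR called 0 higher (17.1% of all tested genes) and 2 lower (14.7%), which is near the background. There, 4 genes had an unadjusted p under 0.05, and DESeq2 called 0 higher and 2 lower. Without fibronectin replicate 3, 8 of the 10 passed, 4 higher and 4 lower, while 2611 of all 14852 genes tested in that fit were higher and 2220 lower. The reading against the background therefore depended on this sample. On Geltrex™ over the control, 6 were higher (16.4%) and 1 lower (16.6%), so the higher genes exceeded the background share and the lower gene did not. The plot of levels by sample shows where these counts come from.

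**Figure D2:**
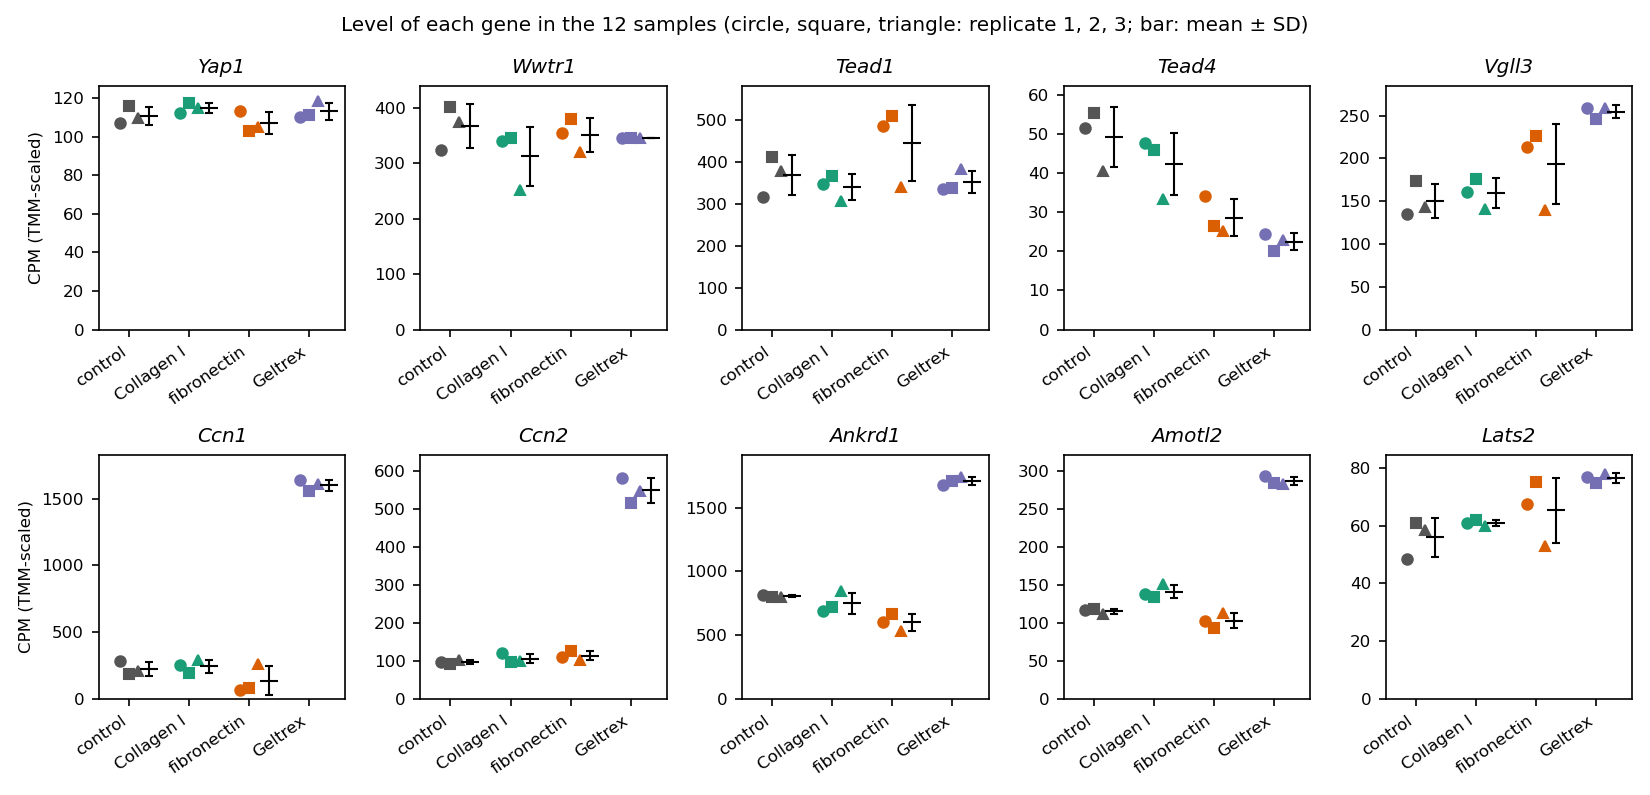
Level of each of the 10 genes in CPM in the 12 samples, with replicates 1, 2, and 3 as circle, square, and triangle and the mean ± SD of 3 samples beside them. *Ccn1*, *Ccn2*, *Ankrd1*, and *Amotl2* stand apart on Geltrex™, with *Ccn1* at 1555 to 1638 CPM there and at 62.5 to 285 CPM elsewhere.

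*Yap1* (ENSMUSG00000053110, GRCm38 chromosome 9, 7931999 to 8004596), which encodes the co-activator YAP, was measured at 107, 116, and 109 CPM in the control and at 112, 117, and 115 CPM on Collagen I. It had 113, 103, and 105 CPM on fibronectin and 110.1, 111, and 118 CPM on Geltrex™. All 4 groups overlapped. The means were 115 ± 2.63 CPM on Collagen I (SD, n = 3), 113 ± 4.44 CPM on Geltrex™, 111 ± 4.63 CPM in the control, and 107 ± 5.66 CPM on fibronectin, and no pair passed the threshold by edgeR. The 95% intervals of the log2 fold changes over the control ran from -0.10 to 0.20 for Collagen I, from -0.20 to 0.10 for fibronectin, and from -0.12 to 0.18 for Geltrex™. Rounded, each of these intervals, taken on its own, reached no further than 0.20 from the control on the log2 scale.

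*Wwtr1* (ENSMUSG00000027803, chromosome 3, 57455649 to 57575910) encodes TAZ, the partner of YAP. Its levels were 323, 402, and 375 CPM in the control, 339, 346, and 251 CPM on Collagen I, 354, 380.4, and 319 CPM with fibronectin, and 345, 345, and 344 CPM with Geltrex™. The groups overlapped, and Collagen I replicate 3 was the lowest sample. In the order of means, the control (366 ± 40.0 CPM) was followed by fibronectin (351 ± 30.5 CPM), Geltrex™ (345 ± 0.262 CPM), and Collagen I (312 ± 52.8 CPM), with no difference past the threshold of edgeR between any pair. The interval over the control was -0.47 to 0.01 for Collagen I, -0.30 to 0.18 for fibronectin, and -0.33 to 0.15 for Geltrex™.

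The levels of the TEAD factors followed different patterns. *Tead1* (ENSMUSG00000055320, chromosome 7, 112679318 to 112906807), the most abundant TEAD gene per kilobase among those measured, had 317, 412, and 379 CPM in the control, 347, 367, and 307 CPM on Collagen I, 486, 512, and 342 CPM with fibronectin, and 337, 338, and 383 CPM with Geltrex™. Fibronectin replicates 1 and 2 lay above all other samples, while fibronectin replicate 3 was within their range. The order of means was fibronectin (446 ± 91.6 CPM), control (369.6 ± 48.2 CPM), Geltrex™ (353 ± 26.1 CPM), and Collagen I (340.2 ± 30.7 CPM), and no neighbors in it differed past the threshold. Only Collagen I and fibronectin passed it, at -0.39 on the log2 scale for Collagen I over fibronectin (SE 0.13, adjusted p = 0.026 by edgeR, with 2 of 3 fibronectin samples above all Collagen I samples). That call was lost without Collagen I replicate 1 (adjusted p = 0.0533), Collagen I replicate 3 (0.101), fibronectin replicate 1 (0.103), or fibronectin replicate 2 (0.128). It was also lost with all samples when only the 2 groups were fitted (adjusted p = 0.0507). Over all 20 alternatives its adjusted p ran from 0.000213 to 0.128, so this call depended on single samples and on the fit. Without fibronectin replicate 3, *Tead1* on fibronectin was higher than in the control by 0.44 (adjusted p = 0.00816, alternatives from 0.00816 to 0.432) and than on Geltrex™ by 0.50 (adjusted p = 0.00575, alternatives from 0.00482 to 0.464). Both also passed with no filter on low counts (adjusted p = 0.0213 and 0.00482).

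*Tead4* (ENSMUSG00000030353, chromosome 6, 128224288 to 128300823) encodes a TEAD factor known for its part in myoblast differentiation. It was counted at 51.7, 55.5, and 40.6 CPM in the control and at 47.8, 46.0, and 33.4 CPM on Collagen I. On fibronectin it had 34.1, 26.6, and 25.3 CPM, and on Geltrex™ 24.4, 20.1, and 22.9 CPM. The control samples were above all fibronectin and Geltrex™ samples, while Collagen I replicate 3 fell just under fibronectin replicate 1. *Tead4* was 1.72-fold lower on fibronectin than in the control (log2 fold change -0.78, SE 0.15, adjusted p = 0.000996 by edgeR) and 2.19-fold lower on Geltrex™ (log2 fold change -1.13, SE 0.15, adjusted p = 2.99e-05). On Collagen I it was higher than on fibronectin by 0.56 (SE 0.15, adjusted p = 0.00656) and than on Geltrex™ by 0.92 (SE 0.15, adjusted p = 0.000226). The order was control (49.3 ± 7.74 CPM), Collagen I (42.4 ± 7.82 CPM), fibronectin (28.7 ± 4.76 CPM), and Geltrex™ (22.47 ± 2.22 CPM). Control and Collagen I did not pass the threshold, with an interval of -0.53 to 0.10, and the fibronectin samples, all above the Geltrex™ samples, did not pass it either (0.35 higher, adjusted p = 0.119, but 0.0158 with no filter). *Tead4* therefore had its higher level in the groups with the higher sum of differentiated muscle markers. The part of differentiation in this result was not tested.

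*Vgll3* (ENSMUSG00000091243, chromosome 16, 65815257 to 65866368) encodes a Vestigial-like cofactor that binds TEAD factors in place of YAP and TAZ. Its levels were 135, 173, and 143 CPM in the control, 160.5, 176, and 141 CPM on Collagen I, 214, 226, and 139 CPM with fibronectin, and 259, 246, and 259 CPM with Geltrex™. All Geltrex™ samples were above all others, and fibronectin replicate 3 was at the level of the control. The means fell from Geltrex™ (255 ± 7.36 CPM) through fibronectin (193 ± 47.0 CPM) and Collagen I (159 ± 17.7 CPM) to the control (150.4 ± 20.1 CPM), and no neighbors differed past the threshold. Geltrex™ was 1.69-fold above the control (log2 fold change 0.76, SE 0.15, adjusted p = 0.00081 by edgeR). Collagen I was 1.60-fold below Geltrex™ (log2 fold change -0.68, SE 0.15, adjusted p = 0.00196). That call was lost with the Geltrex™ samples summed into 1, at a log2 fold change of -0.69. Only the other groups gave the spread in that fit. Fibronectin did not pass against the control (0.36, interval 0.05 to 0.67, adjusted p = 0.07) or against Geltrex™ (-0.40, interval -0.71 to -0.09, adjusted p = 0.067).

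Several of the calls for *Vgll3* changed when 1 sample was left out or when the fit was altered with all samples in it. Fibronectin over the control passed without fibronectin replicate 3 (log2 fold change 0.56, adjusted p = 0.00154) and without control replicate 2 (0.48, adjusted p = 0.0334). It passed as well with the replicate block (0.35, adjusted p = 0.041) and with no filter (0.37), and its adjusted p over the alternatives ran from 0.00132 to 0.286. Collagen I over fibronectin, at -0.28 with all samples, passed without fibronectin replicate 3 (-0.47, adjusted p = 0.00325, alternatives from 0.00325 to 0.457) and with no filter (adjusted p = 0.0152). Fibronectin over Geltrex™ passed without fibronectin replicate 2 (-0.53, adjusted p = 0.0351) and without Collagen I replicate 3 (-0.40, adjusted p = 0.0484). The replicate block (-0.42, adjusted p = 0.024) and no filter (adjusted p = 0.000803) also made it pass, and the alternatives reached 0.417. Whether fibronectin passed against the control, Collagen I, or Geltrex™ thus depended on single samples and on the fit.

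Of the target genes, *Ccn1* (ENSMUSG00000028195, chromosome 3, 145646976 to 145649981) encodes a secreted matricellular protein and is one of the most widely used readouts of YAP and TAZ. It had 283, 182, and 208 CPM in the control, 251, 191, and 285 CPM on Collagen I, 62.5, 77.4, and 257 CPM with fibronectin, and 1638, 1555, and 1608 CPM with Geltrex™. Each Geltrex™ sample was above every other sample, fibronectin replicates 1 and 2 were below every other sample, and fibronectin replicate 3 was at the level of the control. In these bulk samples, a change in the number of cells that express a gene cannot be told apart from a change in the RNA per cell. *Ccn1* was 7.14-fold higher on Geltrex™ than in the control (log2 fold change 2.835, SE 0.38, interval 2.02 to 3.65 on the log2 scale, adjusted p = 3.24e-05 by edgeR). It was 6.60-fold lower on Collagen I than on Geltrex™ (log2 fold change -2.72, SE 0.38, adjusted p = 4.65e-05) and 12.1-fold lower on fibronectin than on Geltrex™ (log2 fold change -3.60, SE 0.40, adjusted p = 9.93e-06). The last of these grew to -4.52 without fibronectin replicate 3, the far end of a range that began at -3.26.

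The order of *Ccn1* below Geltrex™ (1600.4 ± 42.4 CPM) was Collagen I (242 ± 47.5 CPM), control (224 ± 52.1 CPM), and fibronectin (132 ± 108 CPM), and no neighbors among these 3 differed past the threshold in the main fit. For Collagen I over the control the interval was wide, -0.65 to 0.87, and the test could not show a small difference. Fibronectin over the control was -0.76 (interval -1.53 to 0.01, adjusted p = 0.122). Without fibronectin replicate 3 this became -1.67 with an adjusted p of 7.82e-06, and over the alternatives the adjusted p ran from 1.14e-13 to 0.392. It passed, too, when low counts were not filtered out (-0.75) and when the fit allowed for replicate numbers (-0.92, adjusted p = 0.037). Collagen I over fibronectin was 0.87 (interval 0.10 to 1.64, adjusted p = 0.0611), and it passed without fibronectin replicate 3 (1.79, adjusted p = 2.91e-06) and without Collagen I replicate 2 (1.02, adjusted p = 0.0481). With all samples, the replicate block (0.999, adjusted p = 0.0175) and no filter (adjusted p = 4.08e-18) made it pass too, and the highest adjusted p was 0.230. Whether *Ccn1* passed as lower on fibronectin therefore depended on 1 sample and on the settings of the fit.

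*Ccn2* (ENSMUSG00000019997, chromosome 10, 24595442 to 24598683) encodes another secreted protein of the same family. It stood at 96.9, 91.7, and 102 CPM in the control, 120.4, 96.0, and 99.8 CPM on Collagen I, 110.3, 126, and 102 CPM with fibronectin, and 581, 516, and 547 CPM with Geltrex™. Only the Geltrex™ samples stood far apart, and the fibronectin samples were all slightly above the control samples. *Ccn2* was 5.66-fold higher on Geltrex™ than in the control (log2 fold change 2.50, SE 0.10, adjusted p = 4.19e-10 by edgeR). It was 5.2-fold lower on Collagen I than on Geltrex™ (log2 fold change -2.38, SE 0.10, adjusted p = 4.99e-10) and 4.86-fold lower on fibronectin than on Geltrex™ (log2 fold change -2.28, SE 0.10, adjusted p = 8.85e-10). Below Geltrex™ (548 ± 32.3 CPM) came fibronectin (113 ± 12.2 CPM), Collagen I (105 ± 13.1 CPM), and the control (96.9 ± 5.18 CPM), and no pair among these passed. Fibronectin over the control was 0.22 (interval 0.01 to 0.43, adjusted p = 0.104). It passed without fibronectin replicate 3 (0.30, adjusted p = 0.0431, alternatives from 0.0431 to 0.371). Thus *Ccn2* on fibronectin leaned up where *Ccn1* leaned down, and neither passed in the main fit.

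*Ankrd1* (ENSMUSG00000024803, chromosome 19, 36111961 to 36120099) encodes an ankyrin repeat protein that in muscle binds titin and responds to mechanical load. Its counts were 813, 800.1, and 799 CPM in the control, 686, 718, and 845 CPM on Collagen I, 601, 664, and 531 CPM with fibronectin, and 1679, 1710.4, and 1746 CPM with Geltrex™. The Geltrex™ samples were the highest and the fibronectin samples the lowest, and control and Collagen I overlapped. *Ankrd1* was 2.13-fold higher on Geltrex™ than in the control (log2 fold change 1.09, SE 0.10, adjusted p = 3.89e-07 by edgeR) and 1.34-fold lower on fibronectin than in the control (log2 fold change -0.43, SE 0.09, adjusted p = 0.00296). It was 2.28-fold lower on Collagen I than on Geltrex™ (log2 fold change -1.19, SE 0.10, adjusted p = 1.36e-07). Between fibronectin and Geltrex™ it was 2.86-fold lower on fibronectin (log2 fold change -1.52, SE 0.10, adjusted p = 2.66e-08). Collagen I was higher than fibronectin by 0.32 (SE 0.09, adjusted p = 0.0113), a difference that did not pass without fibronectin replicate 3 (0.24, adjusted p = 0.0585, alternatives from 0.00367 to 0.0585). The order was Geltrex™ (1712 ± 33.7 CPM), control (804 ± 7.96 CPM), Collagen I (749 ± 84.2 CPM), and fibronectin (599 ± 66.7 CPM). Of the neighbors, only control and Collagen I did not pass the threshold (interval -0.30 to 0.10).

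*Amotl2* (ENSMUSG00000032531, chromosome 9, 102716672 to 102733418) encodes an angiomotin-like scaffold that binds YAP and TAZ and restrains them, so that it is both a target and an inhibitor. It had 117, 117, and 111 CPM in the control, 137, 134, and 151 CPM on Collagen I, 102, 93.0, and 113 CPM with fibronectin, and 293, 284, and 283 CPM with Geltrex™. The Geltrex™ samples were highest, all Collagen I samples were above all control and fibronectin samples, and fibronectin and control overlapped. *Amotl2* was 2.49-fold higher on Geltrex™ than in the control (log2 fold change 1.32, SE 0.08, adjusted p = 1.14e-08 by edgeR). It was 2.04-fold lower on Collagen I than on Geltrex™ (log2 fold change -1.03, SE 0.08, adjusted p = 1.20e-07) and 2.79-fold lower on fibronectin than on Geltrex™ (log2 fold change -1.48, SE 0.08, adjusted p = 5.80e-09). Collagen I was above fibronectin by 0.46 (SE 0.08, adjusted p = 0.000368). In the order Geltrex™ (286 ± 5.43 CPM), Collagen I (141 ± 8.71 CPM), control (115 ± 3.65 CPM), and fibronectin (102 ± 9.95 CPM), no neighbors among the last 3 passed the threshold. Collagen I over the control was 0.29 (interval 0.12 to 0.46), with an adjusted p of 0.0903 by edgeR and 0.0131 by DESeq2, and over the alternatives from 0.0131 to 0.254. Fibronectin over the control was -0.16 (interval -0.34 to 0.01, adjusted p = 0.133) and passed without fibronectin replicate 3 (-0.23, adjusted p = 0.0439, alternatives from 0.0439 to 0.428).

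*Lats2* (ENSMUSG00000021959, chromosome 14, 57689662 to 57758388) encodes a kinase that phosphorylates YAP and TAZ, and its transcription is itself raised by them. Its levels were 48.4, 61.2, and 58.7 CPM in the control, 61.0, 62.0, and 60.0 CPM on Collagen I, 67.8, 75.2, and 53.1 CPM with fibronectin, and 77.2, 74.8, and 78.0 CPM with Geltrex™. The Geltrex™ samples lay above all control and Collagen I samples, with fibronectin replicate 2 within their range and fibronectin replicate 3 at the control level. *Lats2* was 1.37-fold higher on Geltrex™ than in the control (log2 fold change 0.45, SE 0.11, adjusted p = 0.00545 by edgeR). It did not pass with the Geltrex™ samples summed into 1, at a log2 fold change of 0.46. In that fit only the other groups gave the spread. On Collagen I it was lower than on Geltrex™, at -0.33 on the log2 scale (SE 0.11, adjusted p = 0.0292). That call was lost when any 1 of the 6 samples compared was left out. The adjusted p was 0.0687, 0.0515, and 0.0655 without Collagen I replicates 1, 2, and 3. Without Geltrex™ replicates 1, 2, and 3 it was 0.0741, 0.0593, and 0.0823. The log2 fold change stayed between -0.35 and -0.32 in these fits. With the Geltrex™ samples summed into 1 the call was lost as well, at a log2 fold change of -0.34. The means fell from Geltrex™ (76.7 ± 1.70 CPM) through fibronectin (65.4 ± 11.2 CPM) and Collagen I (61.0 ± 0.992 CPM) to the control (56.1 ± 6.79 CPM), and no neighbors differed past the threshold. Fibronectin over the control was 0.22 (interval -0.02 to 0.46) and passed without fibronectin replicate 3 (0.36, adjusted p = 0.0124, alternatives from 0.0124 to 0.511).

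**Figure D3:**
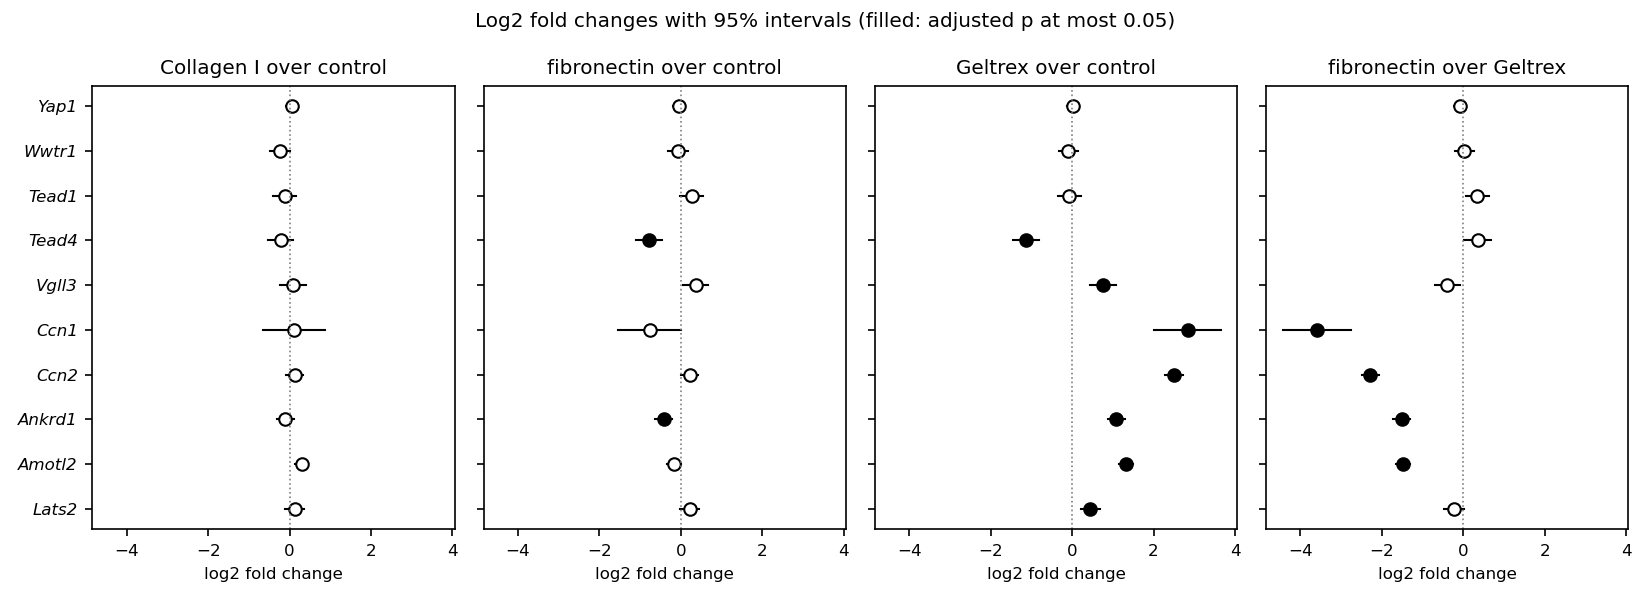
Log2 fold change of each of the 10 genes with its 95% interval in 4 comparisons, filled where the adjusted p was at most 0.05. On Geltrex™ over the control, *Ccn1* and *Ccn2* were the highest at 7.14-fold and 5.66-fold, while *Yap1*, *Wwtr1*, and *Tead1* had intervals that contained 0.

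The comparisons between coatings share their samples with the comparisons against the control. On Collagen I over fibronectin, edgeR called 3 of the 10 higher (22.1% of all tested genes) and 1 lower (22.9%), near or under the background. On Collagen I over Geltrex™, 1 was higher (18.2%) and 6 were lower (19.0%), and only the lower genes exceeded the background share. On fibronectin over Geltrex™, edgeR called 0 higher (10.3%) and 4 lower (9.06%). In this comparison 7 genes had an unadjusted p under 0.05, and DESeq2 called 0 higher and 4 lower. The 4 genes that were lower on fibronectin than on Geltrex™, and also on Collagen I than on Geltrex™ by 2-fold or more, were *Ccn1*, *Ccn2*, *Ankrd1*, and *Amotl2*.

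The plot of log2 fold changes gives the sizes, and the median over the 10 genes summarizes them. It was 0.067 on Collagen I over the control, -0.055 on fibronectin over the control, and 0.61 on Geltrex™ over the control, while the median of all tested genes was -0.0031, -0.016, and -0.012. For Collagen I over fibronectin it was 0.00059, compared with 0.022 for all tested genes. It was -0.50 for Collagen I over Geltrex™ and -0.31 for fibronectin over Geltrex™, compared with 0.026 and -0.0049. The medians lay more than 0.1 from those of all genes only in the 3 comparisons with Geltrex™.

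The summed level of the 10 genes was 2292, 2411, and 2326 CPM in the control, 2262, 2253, and 2287 CPM on Collagen I, 2144, 2283, and 1986 CPM with fibronectin, and 5343, 5199, and 5389 CPM with Geltrex™. Its most abundant gene was *Ankrd1*, with means of 804 CPM in the control and 1712 CPM on Geltrex™. *Ccn1* rose further, from 224 to 1600 CPM, so the sum mainly reflects a few target genes. The sum was highest in the Geltrex™ samples, whereas the sums of the muscle and proliferation markers separated both fibronectin and Geltrex™ from control and Collagen I, and every muscle sum on fibronectin was below every one on Geltrex™. Each of the 7 muscle markers was lower on fibronectin and on Geltrex™ than in the control (14.7% and 16.6% of all tested genes). Each of the 5 proliferation markers was higher in both (17.1% and 16.4%). On fibronectin over Geltrex™, 4 of the 7 muscle markers were lower by edgeR (9.06% of all tested genes). At an unadjusted p under 0.05 the count was 7, and DESeq2 called 5 lower. Of the 5 proliferation markers, edgeR called 0 higher and 0 lower in this comparison (10.3% and 9.06% of all tested genes). DESeq2 called 0 as well, and 0 had an unadjusted p under 0.05. The part of differentiation and proliferation in the levels of the 10 genes was not tested.

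**Figure D4:**
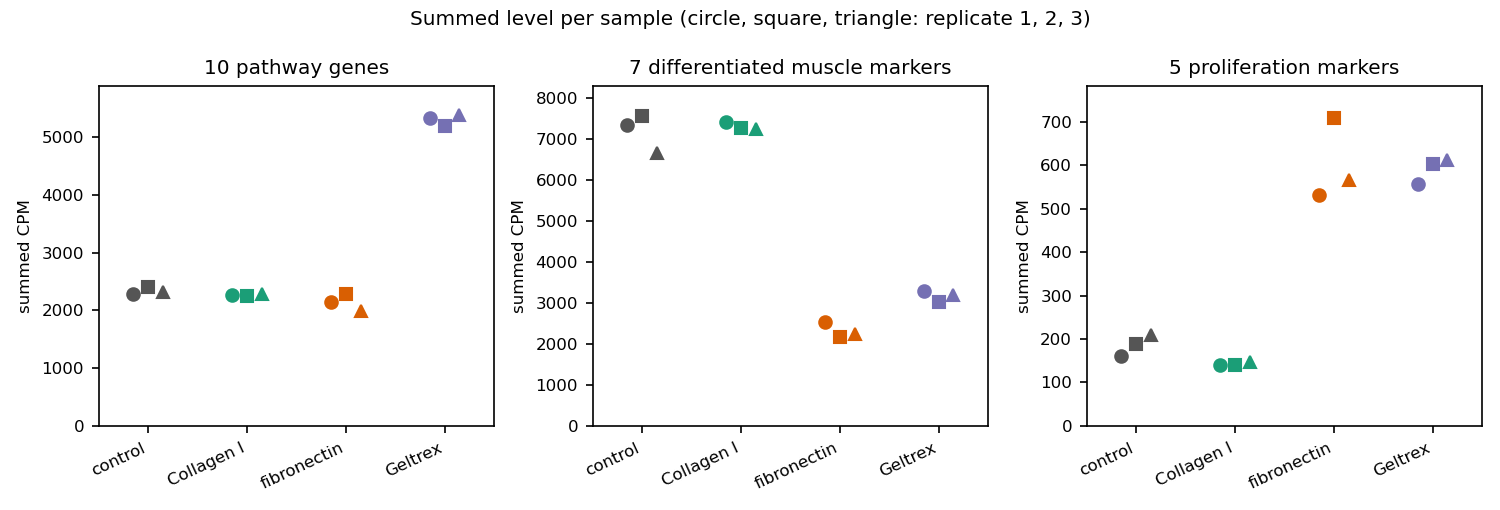
Summed CPM per sample of the 10 pathway genes, of 7 markers of differentiated muscle, and of 5 markers of proliferation, with replicates 1, 2, and 3 as circle, square, and triangle. The pathway sum is at 5199 to 5389 CPM on Geltrex™ and at 1986 to 2411 CPM elsewhere, while fibronectin and Geltrex™ overlap in the proliferation sum and fibronectin is the lower in the muscle sum.

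Over the 12 samples, the log2 levels of the targets were correlated with each other, with a Pearson r of 0.868 for *Ccn1* and *Ccn2*, 0.956 for *Ccn1* and *Amotl2*, and 0.924 for *Ccn2* and *Ankrd1*. Since the Geltrex™ samples form a cluster of their own, r was also taken over the 9 other samples. There it was -0.506 for *Ccn1* and *Ccn2*, 0.736 for *Ccn1* and *Amotl2*, and -0.428 for *Ccn2* and *Ankrd1*, so the first and last of these relations rested on the Geltrex™ samples. *Ccn1* ran against *Tead1* (-0.951) and *Vgll3* (-0.928) over the 9 samples, and *Tead1* and *Vgll3* ran together (0.922), but over the 12 samples these values were -0.589, 0.440, and 0.398. *Vgll3* and *Lats2* were correlated with and without Geltrex™ (0.948 over 12 samples and 0.895 over 9). *Yap1* and *Wwtr1* had values near 0 (-0.0838 over 12 samples and -0.104 over 9). These values are descriptions across samples that share their groups.

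Outside the 10 genes, the genes with the most similar profiles over the 12 samples were sought among 8906 tested genes with a mean of at least 10 CPM. For *Ccn1* they were *Cxcl1* (r = 0.978), *Cited2* (0.976), and *Xaf1* (0.962), with 0.895, 0.925, and 0.807 over the 9 samples without Geltrex™. For *Ccn2* they were *Atf3* (0.993), *C3* (0.990), and *Noct* (0.986), but without Geltrex™ r dropped to 0.456, 0.269, and 0.275. The likeness of the *Ccn2* profile thus came from the Geltrex™ samples, while that of *Ccn1* was also present over the 9 other samples. Among these, fibronectin replicates 1 and 2 stood apart in *Ccn1*, at 62.5 and 77.4 CPM, with 182 to 285 CPM in the rest. The values of r were not taken without these fibronectin samples. *Ankrd1* was most like *Bcar1* (0.985), *Ccl2* (0.973), and *Ppp1r15a* (0.965), with 0.889, 0.731, and 0.782 without Geltrex™. *Amotl2* was most like *Cxcl5* (0.987), *Trib1* (0.979), and *Cited2* (0.979), with 0.857, 0.804, and 0.757 without Geltrex™. The nearest genes to *Yap1* were *Igfbp5* (0.859), *Cog2* (0.829), and *Arhgap28* (0.812), and those to *Wwtr1* were *Gpbp1* (0.977), *Rab5a* (0.965), and *Rlf* (0.963).

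Other genes of the pathway were counted in lists, and the percentages in brackets are the shares of all tested genes that were higher and lower in the same comparison. Of 23 other Hippo regulators, 22 were tested and *Dchs1* was not. On fibronectin over the control, 9 were higher and 0 lower by edgeR (17.1% and 14.7%), with 11 at an unadjusted p under 0.05 and 9 higher and 0 lower by DESeq2. On Geltrex™ over the control, 8 were higher and 2 lower (16.4% and 16.6%), and the total fell from 10 to 6 without Geltrex™ replicate 2. Without that sample, 1864 of all tested genes were higher and 1718 lower, compared with 2373 and 2413 in the main fit. Against the control, Collagen I had 1 higher and 0 lower (0.200% and 0.917%, with 3 at an unadjusted p under 0.05, and 1 higher and 0 lower by DESeq2). That gene, *Frmd6*, which encodes a FERM domain protein upstream of the kinases, had 103, 127, and 106 CPM in the control, 167, 169, and 154 CPM on Collagen I, 262, 243, and 189 CPM with fibronectin, and 367, 358, and 367 CPM with Geltrex™. The 4 groups did not overlap in *Frmd6*. Over the control it was higher by 0.54 on Collagen I (SE 0.11, adjusted p = 0.0247), 1.05 on fibronectin (SE 0.11, adjusted p = 3.69e-06), and 1.70 on Geltrex™ (SE 0.11, adjusted p = 2.05e-08). The call on Collagen I, the only 1 in the list, was lost (count of 0) without control replicate 1 or 3, without Collagen I replicate 1 or 2, and without any 1 of the Geltrex™ replicates. In these fits 9 to 25 of all tested genes were higher on Collagen I over the control, compared with 29 in the main fit.

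*Fat4*, an atypical cadherin, was higher than in the control by 0.99 on fibronectin (SE 0.13, adjusted p = 2.68e-05 by edgeR) and by 1.16 on Geltrex™ (SE 0.13, adjusted p = 3.98e-06). *Wwc1*, the gene of the scaffold KIBRA, was higher by 1.20 on fibronectin (SE 0.29, adjusted p = 0.00562) and 1.03 on Geltrex™ (SE 0.30, adjusted p = 0.015), at levels of at most 2.12 CPM. *Lats1*, the gene of the kinase most like LATS2, had 138 ± 24.3 CPM in the control, 121 ± 24.1 CPM on Collagen I, 218 ± 28.4 CPM with fibronectin, and 202 ± 7.35 CPM with Geltrex™. It was higher than in the control by 0.66 on fibronectin (adjusted p = 0.00256) and 0.55 on Geltrex™ (adjusted p = 0.00752). *Nf2*, the gene of Merlin, had means of 132 to 135 CPM in the 4 groups, and its intervals over the control lay between -0.15 and 0.19. The regulators' median was 0.015 on Collagen I over the control, 0.23 on fibronectin, and 0.11 on Geltrex™.

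Between the coatings, 1 regulator was higher and 11 were lower on Collagen I than on fibronectin (22.1% and 22.9%), led by *Ptpn14* (-0.96, SE 0.09, adjusted p = 5.64e-07 by edgeR), *Fat4* (-0.87), and *Lats1* (-0.85). Against Geltrex™, Collagen I had 2 higher and 8 lower (18.2% and 19.0%), and the largest differences were those of *Frmd6* (-1.16), *Fat4* (-1.04), and *Ptpn14* (-0.86). Against Geltrex™, fibronectin had 3 higher and 2 lower (10.3% and 9.06%), with *Frmd6* at -0.65, *Wwc2* at 0.43, and *Taok3* at -0.37. This total of 5 fell to 2 without fibronectin replicate 1, to 3 without Geltrex™ replicate 1, to 2 without Geltrex™ replicate 2, and to 3 without Geltrex™ replicate 3. Of all tested genes, 1491 were higher and 1314 lower in the main fit, and 885 to 970 and 832 to 943 with these samples left out. The order of these 3 comparisons by the number of changed regulators was the same as for all tested genes.

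Of the other TEAD and Vestigial-like genes, 4 of 5 were tested, and *Vgll1* had no count. For Collagen I over the control, edgeR called 0 of the 4 in either direction (0.200% and 0.917%), with 0 at an unadjusted p under 0.05 and 0 by DESeq2. For fibronectin over the control, 0 were higher and 2 lower (17.1% and 14.7%), *Vgll2* (-0.58, SE 0.20, adjusted p = 0.0344) and *Tead2* (-0.28, SE 0.09, adjusted p = 0.0193). Here 2 had an unadjusted p under 0.05 and DESeq2 called 0 higher and 1 lower. The count of 2 became 0 without control replicate 1 or fibronectin replicate 1, and 1 without fibronectin replicate 3 or Geltrex™ replicate 1 or 2. Of all tested genes, 2133 were lower in the main fit. With these samples left out, in the same order, 1453, 1552, 2220, 1883, and 1896 were lower. On Geltrex™ over the control (16.4% and 16.6%), *Vgll2* was higher (0.62, SE 0.18, adjusted p = 0.017), while *Vgll4* (-0.57, SE 0.10, adjusted p = 0.000264) and *Tead2* (-0.44, SE 0.09, adjusted p = 0.00103) were lower. *Tead2* had 52.7 ± 2.70 CPM in the control, 58.1 ± 5.18 CPM on Collagen I, 43.3 ± 2.70 CPM with fibronectin, and 39.0 ± 2.22 CPM with Geltrex™, the same order of the groups as *Tead4* apart from the first 2. *Tead3* had 22.6 ± 4.10 CPM in the control and passed the threshold in none of the 6 comparisons, at an adjusted p of at least 0.204 by edgeR.

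Among these genes, *Vgll4*, which encodes a cofactor that competes with YAP for TEAD factors, was low only on Geltrex™, at 33.3, 33.9, and 30.0 CPM. It had 47.3, 53.2, and 44.1 CPM in the control, 47.6, 45.3, and 49.9 CPM on Collagen I, and 54.8, 44.4, and 47.4 CPM on fibronectin. Every Geltrex™ sample was below every other sample. *Vgll4* was higher on fibronectin than on Geltrex™ by 0.59 (SE 0.10, adjusted p = 0.000427 by edgeR) and on Collagen I than on Geltrex™ by 0.55 (SE 0.10, adjusted p = 0.000361). *Vgll2* ran the other way, at 4.35 ± 0.190 CPM on Geltrex™ and 1.90 ± 0.443 CPM on fibronectin (-1.20 on fibronectin over Geltrex™, SE 0.19, adjusted p = 0.000368). On Collagen I over fibronectin, edgeR called 1 of the 4 tested genes higher and 0 lower (22.1% and 22.9%). It was *Tead2* (0.42, SE 0.09, adjusted p = 0.00103). Against Geltrex™, Collagen I had 2 higher and 1 lower (18.2% and 19.0%). Beside *Vgll4*, these were *Tead2* (0.58, SE 0.09) and *Vgll2* (-0.87, SE 0.19). Fibronectin over Geltrex™ had 1 higher and 1 lower (10.3% and 9.06%).

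The 16 other widely used YAP target genes were all tested. On fibronectin over the control, 6 were higher and 1 lower by edgeR (17.1% and 14.7%), and on Geltrex™ over the control 6 were higher and 2 lower (16.4% and 16.6%), with medians of 0.28 and 0.22. On Geltrex™ the highest were *Gadd45b* (1.18, SE 0.13, adjusted p = 4.46e-06) and *F3* (1.12, SE 0.12, adjusted p = 3.30e-06), while *Fjx1* was lower (-0.77, SE 0.22, adjusted p = 0.0134). *F3* was also the highest on fibronectin (0.79, SE 0.12, adjusted p = 0.000143), ahead of *Ccdc80* (0.65) and *Crim1* (0.55). *Axl* had 316 ± 5.13 CPM in the control, 308 ± 6.74 CPM on Collagen I, 385 ± 17.2 CPM with fibronectin, and 386 ± 6.07 CPM with Geltrex™, and both of the latter were higher than the control (0.28 and 0.29, adjusted p = 0.00462 and 0.00375). *Gadd45b*, at 29.2 ± 1.18 CPM on Geltrex™ and with means between 9.64 and 12.9 CPM elsewhere, was the 1 target of the 16 called lower on fibronectin than in the control (-0.41, adjusted p = 0.0297).

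On Collagen I over the control, 0 of the 16 were higher and 2 lower by edgeR (0.200% and 0.917%), *Igfbp3* (-0.81, SE 0.16, adjusted p = 0.024) and *Crim1* (-0.50, SE 0.12, adjusted p = 0.0483). At an unadjusted p under 0.05 the count was 8, and DESeq2 called 0 higher and 5 lower, beside 111 and 341 of all 12827 genes. The count of 2 changed when single samples were left out. The lower calls among all tested genes moved too, from 133 in the main fit to 35 without Collagen I replicate 2 and 182 without fibronectin replicate 3. They stayed near the main fit without control replicate 1 (130) and Collagen I replicate 3 (121). The count of YAP targets moved in both of these fits as well. The YAP target count was 0 without control replicate 2, control replicate 3, or any 1 of the Collagen I replicates 2 and 3, and it was 5 without control replicate 1 and 4 without fibronectin replicate 2 or 3. It was 1 without Collagen I replicate 1, fibronectin replicate 1, or any 1 of the Geltrex™ replicates. Against fibronectin, Collagen I had 1 higher and 12 lower (22.1% and 22.9%), led by *F3* (-1.28), *Crim1* (-1.05), and *Dock5* (-0.88), and on Collagen I over Geltrex™ 1 was higher and 12 lower (18.2% and 19.0%), led by *F3* (-1.62), *Igfbp3* (-1.38), and *Gadd45b* (-1.21). Between fibronectin and Geltrex™, 5 were higher and 2 lower on fibronectin (10.3% and 9.06%), among them *Gadd45b* (-1.60), *Nt5e* (0.98), and *Fjx1* (0.73).

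**Figure D5:**
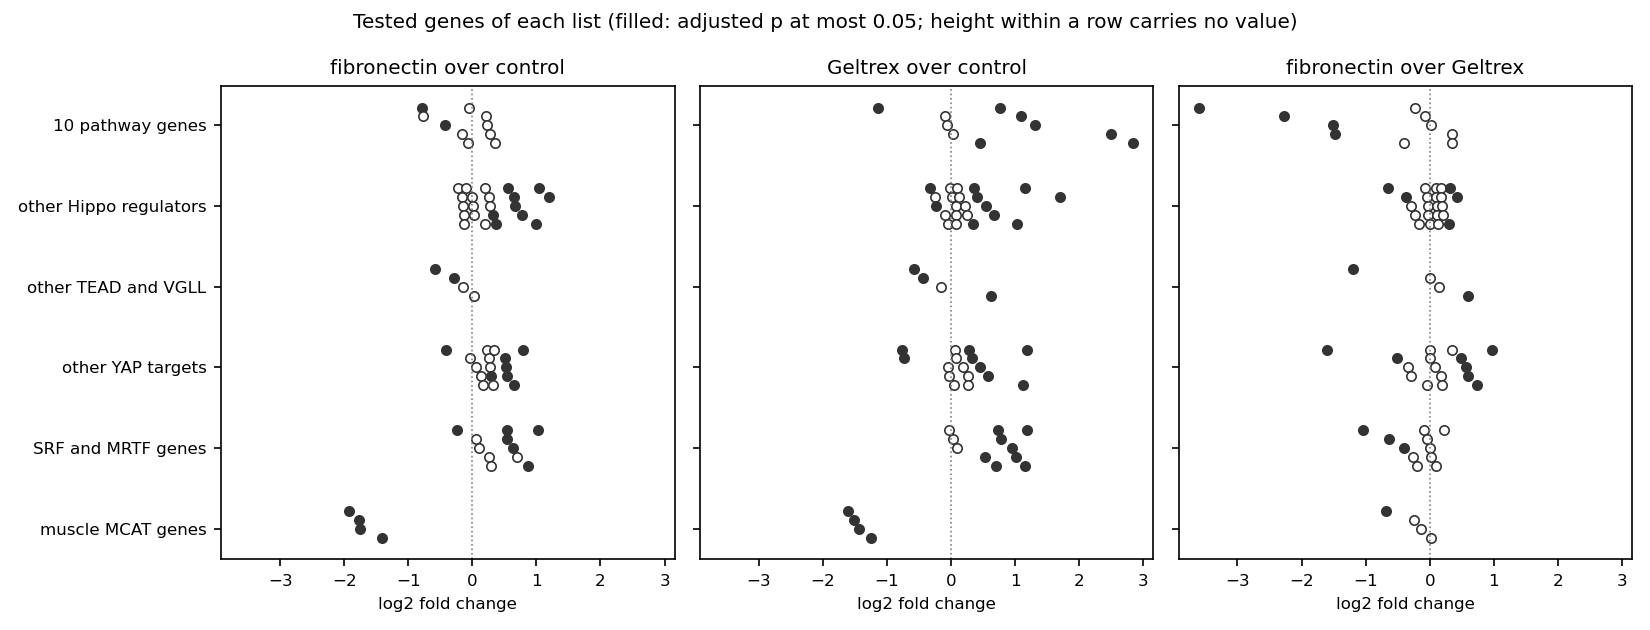
Log2 fold changes of the tested genes of each list in 3 comparisons, 1 point per gene, filled where the adjusted p was at most 0.05. On fibronectin over Geltrex™ the 10 pathway genes reach down to -3.60 (*Ccn1*), while the other YAP targets lie between -1.60 and 0.98.

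SRF and its co-activators of the MRTF family answer to actin and share several targets with YAP and TAZ, and 11 of 12 genes of these factors and their targets were tested (*Cnn1* was not). On Geltrex™ over the control, 8 were higher and 0 lower by edgeR (16.4% and 16.6%, with 8 at an unadjusted p under 0.05, and 7 higher and 0 lower by DESeq2), with a median of 0.73. *Srf* had 25.7, 22.9, and 22.8 CPM in the control, 25.9, 23.4, and 27.7 CPM on Collagen I, 29.1, 23.9, and 23.6 CPM with fibronectin, and 52.2, 48.7, and 57.7 CPM with Geltrex™. Only the Geltrex™ samples stood apart, as for *Ccn2*. *Srf* was higher on Geltrex™ than in the control by 1.15 (SE 0.10, adjusted p = 5.28e-07), next to *Fhl2* (1.19, SE 0.11) and *Flna* (1.02, SE 0.09). Against the control, fibronectin had 5 higher and 1 lower (17.1% and 14.7%), led by *Flna* (1.03), *Myl9* (0.87), and *Cnn2* (0.63), with a median of 0.54, while the interval of *Srf* was -0.12 to 0.32. For fibronectin over Geltrex™, 0 were higher and 3 lower by edgeR (10.3% and 9.06%, with 4 at an unadjusted p under 0.05, and 0 higher and 3 lower by DESeq2), namely *Srf* (-1.05), *Fhl2* (-0.64), and *Actb* (-0.40).

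For Collagen I over the control, edgeR called 0 of the 11 in either direction (0.200% and 0.917%), with 1 at an unadjusted p under 0.05 and 0 by DESeq2, and the count was 1 without Collagen I replicate 3. Without that sample, 30 of all tested genes were higher and 121 lower, compared with 29 and 133 in the main fit. Against fibronectin, Collagen I had 1 higher and 7 lower (22.1% and 22.9%), led by *Myl9* (-1.12), *Flna* (-1.11), and *Vcl* (-0.66). Against Geltrex™, it had 0 higher and 7 lower by edgeR (18.2% and 19.0%, with 9 at an unadjusted p under 0.05, and 0 higher and 8 lower by DESeq2), led by *Fhl2* (-1.16), *Flna* (-1.10), and *Srf* (-1.04).

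The 4 muscle genes whose promoters are classic MCAT examples were all tested. On Geltrex™ over the control, edgeR called 0 higher and 4 lower (16.4% and 16.6%, with 4 at an unadjusted p under 0.05, and 0 higher and 4 lower by DESeq2), with a median of -1.48. The named ones were *Myh6* (-1.61, SE 0.30), *Tnnt2* (-1.52, SE 0.09), and *Myh7* (-1.44, SE 0.17). For fibronectin over the control, 0 were higher and 4 lower by edgeR (17.1% and 14.7%, with 4 at an unadjusted p under 0.05, and 0 higher and 4 lower by DESeq2), with a median of -1.76, led by *Acta1* (-1.93, SE 0.11), *Tnnt2* (-1.77, SE 0.09), and *Myh6* (-1.75, SE 0.30). On Collagen I all 4 were higher than on fibronectin (22.1% of all tested genes), led by *Myh6* (2.48), *Acta1* (1.97), and *Myh7* (1.85). They were also all higher on Collagen I than on Geltrex™ (18.2%), led by *Myh6* (2.35), *Myh7* (1.87), and *Tnnt2* (1.45). For Collagen I over the control, edgeR called 0 in either direction (0.200% and 0.917%, with 2 at an unadjusted p under 0.05, and 0 by DESeq2). Between fibronectin and Geltrex™, edgeR called 0 higher and 1 lower on fibronectin (10.3% and 9.06%), *Acta1* (-0.68, SE 0.10, adjusted p = 0.00026), with 2 at an unadjusted p under 0.05 and 2 lower by DESeq2. That count was 2 without Collagen I replicate 3, where 1653 of all tested genes were lower, compared with 1314 in the main fit. The 4 muscle genes follow the muscle marker sum, which includes *Acta1*, and promoters with the same core letters therefore belonged to genes that moved in opposite directions.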

How the data were processed

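Reads were checked with FastQC, trimmed with Trimmomatic, aligned with HISAT2, and counted on genes with featureCounts by the authors, per the labels and the paper, and DESeq2 is named for their own tests. The genome build, the annotation release, and the use of strand are not given in the sources used here. The deposited values are raw counts per gene, 1 column per sample. Gene names, positions, and exon lengths came from GENCODE M21 (GRCm38), and promoter sequences from RefSeq (GRCm38.p6).

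The tests were run in R 4.3.3 with edgeR 4.0.16. The filter on low counts (filterByExpr, minimum count 10, minimum total 15) left 14499 of 55536 genes, and TMM factors scaled the libraries. The 12 samples entered 1 quasi-likelihood model of the 4 groups with 8 residual degrees of freedom, and p-values were adjusted over all 14499 genes by the Benjamini-Hochberg method. The standard error is the size of the log2 fold change divided by the root of the F statistic, and intervals are at 95%. The test measures the spread between samples, and counting error is included in it. Correlations used log2 CPM with a prior count of 2.

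All 10 genes are named in every comparison. From each other list, up to 3 genes with the largest change among those past the threshold are named per comparison, along with *Tead2*, *Tead3*, *Vgll2*, *Vgll4*, *Lats1*, *Nf2*, *Axl*, and *Srf*. For 6 of the genes, the 3 genes with the highest Pearson r are named. The members and lists were chosen with earlier results of these data known.

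The alternatives were DESeq2 1.42.0, RLE and total count scaling, no filter, at least 10 counts in every sample, only the 2 groups compared, the replicate number as a block, a fold change of at least 2, an adjusted p of at most 0.01, the Geltrex™ samples summed into 1, and each sample left out in turn. The procedure was tested on simulated data. Protein and imaging data were not used.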

Additional observations from a re-analysis of the deposited data

How the results depend on the processing

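The log2 fold changes of the 10 genes in the 6 comparisons gave 60 results, each under 20 alternatives that change the fit. Of the values under these alternatives, 1159 stayed on the same side of the threshold, 26 newly passed it, 15 no longer passed it, and 0 of those called in either fit changed sign, while some small changes that never passed did. RLE scaling, total count scaling, and at least 10 counts in every sample changed none of the 60 calls. The calls of single genes that changed are given with the genes.

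The number of changed genes among the 10 was counted with each sample left out. Brackets here give the ranges of higher and of lower calls among the 14761 to 14859 genes tested. The number was 0 on Collagen I over the control (9 to 51 and 35 to 182). On fibronectin over the control it was 2 to 8 (1691 to 2668 and 1453 to 2625). It was 7 in every case on Geltrex™ over the control (1832 to 2567 and 1718 to 2785). Collagen I over fibronectin had 3 to 5 (2401 to 3292 and 2740 to 3391). On Collagen I over Geltrex™ the number was 6 to 7 (1889 to 2790 and 2135 to 2864). Fibronectin over Geltrex™ had 4 to 5 (885 to 1783 and 832 to 1653). The other lists that moved by more than 1.5 times were the Hippo regulators (0 to 1 on Collagen I over the control, 6 to 10 on Geltrex™ over the control, and 2 to 5 on fibronectin over Geltrex™), the YAP targets (0 to 5 on Collagen I over the control), the SRF genes (0 to 1 on Collagen I over the control), the TEAD and Vestigial-like genes (0 to 2 on fibronectin over the control), and the MCAT genes (1 to 2 on fibronectin over Geltrex™).

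With DESeq2, the 10 genes had 1 change in place of 0 and the YAP targets 5 in place of 2 on Collagen I over the control, the TEAD and Vestigial-like genes 1 in place of 2 on fibronectin over the control, and the MCAT genes 2 in place of 1 on fibronectin over Geltrex™. Of all genes, DESeq2 called 111 higher and 341 lower on Collagen I over the control, where edgeR called 29 and 133. It called 2589 and 2070 on fibronectin over the control, where edgeR called 2485 and 2133. On fibronectin over Geltrex™ it called 1578 and 1394, where edgeR called 1491 and 1314. With only the 2 groups compared, the Hippo regulators had 0 and the YAP targets 0 on Collagen I over the control, the TEAD and Vestigial-like genes 1 on fibronectin over the control, and the MCAT genes 2 on fibronectin over Geltrex™. All tested genes then had 8 higher and 31 lower of 13959 on Collagen I over the control. They had 1883 and 1798 of 13880 on fibronectin over the control, and 1835 and 1686 of 13698 on fibronectin over Geltrex™. RLE scaling gave the YAP targets 1 on Collagen I over the control, and total count scaling gave the MCAT genes 2 on fibronectin over Geltrex™. In the same comparisons, all tested genes had 29 higher and 129 lower with RLE scaling, and 1415 higher and 1285 lower with total count scaling. With no filter, Collagen I over the control had 5 YAP targets, 1 SRF gene, and 1 MCAT gene (beside 202 higher and 379 lower of all 29301). Fibronectin over the control had 5 of the 10 genes (2 higher and 3 lower, beside 2529 higher and 2153 lower of all 29301) and 1 TEAD or Vestigial-like gene, and fibronectin over Geltrex™ had 7 of the 10 genes (2 higher and 5 lower, beside 1629 and 1493 of 29301). With the replicate number as a block, 4 of the 10 genes changed on fibronectin over the control (1 higher and 3 lower, beside 2473 higher and 2154 lower of all 14499). No pair of groups had a correlation of deviations above 0.1 in each of its same-numbered pairs, and whether the numbers mark a shared culture is not stated. The cause of these changes was not tested.

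Summing the Geltrex™ samples into 1 leaves 1 sample in that group, without a spread of its own, so the counts of calls in that fit are not given here. A fold change of at least 2 lowers counts by construction, as does a stricter adjusted p. Counts of all tested genes at these thresholds are not given here, so the counts that follow are not read against them. The fold change limit gave 0 Hippo regulators and 0 YAP targets on Collagen I over the control. On fibronectin over the control it gave 0 of the 10 genes, 2 Hippo regulators, 0 TEAD and Vestigial-like genes, 0 YAP targets, and 1 SRF gene, and on Geltrex™ over the control 3 Hippo regulators, 0 TEAD and Vestigial-like genes, 2 YAP targets, and 3 SRF genes. On Collagen I over fibronectin it gave 0 of the 10 genes, 0 Hippo regulators, 0 TEAD and Vestigial-like genes, 2 YAP targets, and 2 SRF genes, and on Collagen I over Geltrex™ 4, 2, 0, 3, and 4 of these in the same order. On fibronectin over Geltrex™ it gave 0 Hippo regulators, 1 TEAD or Vestigial-like gene, 1 YAP target, 1 SRF gene, and 0 MCAT genes. An adjusted p of at most 0.01, also stricter by construction, gave 0 Hippo regulators and 0 YAP targets on Collagen I over the control, 0 TEAD and Vestigial-like genes on fibronectin over the control, 6 Hippo regulators on Geltrex™ over the control, 2 of the 10 genes and 7 Hippo regulators on Collagen I over fibronectin, and 2 Hippo regulators on fibronectin over Geltrex™.

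With 3 samples per group, small differences such as those of *Tead1*, *Vgll3*, and *Lats2* lay near the threshold. The Geltrex™ samples varied less between each other than the samples of the other groups, with a chi-square per degree of freedom of 2.18 to 4.54, compared with 7.71 to 64.6, and the model gives all groups the same spread. RNA levels do not measure the location or the phosphorylation of YAP and TAZ, on which their activity depends.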

Other observations

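Fibronectin replicate 3 was the only sample in which any of the 10 genes lay at least 2-fold from both other samples of its group. Of 8916 genes with a mean of at least 10 CPM, 4 were at least 2-fold above both other fibronectin samples there, and they are named after their values were seen. They were *Ccn1*, *Dusp1*, *Ier2*, and *Rn7sk*. *Dusp1* had 29.5, 27.7, and 80.4 CPM on fibronectin, 95.5, 72.7, and 88.5 CPM in the control, and 248, 239, and 241 CPM on Geltrex™. *Ier2* had 15.4, 14.4, and 34.1 CPM on fibronectin. The share of genes at least 2-fold apart from both other samples of the group was 0.0449% in fibronectin replicate 3 and between 0% and 0.0785% in the 12 samples. The highest share was in Collagen I replicate 3. Its chi-square per degree of freedom was 44.4 against replicate 1 and 64.6 against replicate 2, which had 7.71 between them. It was the lowest Collagen I sample for *Wwtr1*, *Tead1*, *Tead4*, *Vgll3*, and *Lats2* and the highest for *Ccn1*, *Ankrd1*, and *Amotl2*.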
